A study of Danio rerio with 11 samples.

Results

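The methylation peaks of whole zebrafish embryos at 3 days post-fertilization (3dpf) were compared with those of 4 adult tissues, eye, brain, heart and liver. The members are the 101868 peaks of the untreated 3dpf list and the 45785 peaks of eye, 79008 of brain, 50110 of heart and 50170 of liver, 326941 of the 816382 peaks in the 9 deposited lists of the series. A 3dpf peak was held by a tissue when its interval overlapped a peak of that tissue by at least 1 bp. An adult peak with no overlapping 3dpf peak is described as absent at 3dpf, which means that no peak was called there and not that the DNA was free of methylation. Each comparison was made with all peaks and again with equal numbers of the top-scoring peaks, 45785 per list, the length of the eye list.

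CpG methylation is copied to the new DNA strand after replication by the maintenance methyltransferase Dnmt1, and new methylation is set by enzymes of the Dnmt3 family. Most CpGs of a vertebrate genome are methylated, and unmethylated stretches lie mainly at promoters and other regulatory sequence, where some are methylated or demethylated as cell types differentiate. In MBD-seq, the DNA fragments bound by a methyl-CpG binding domain protein are sequenced, so regions with many methylated CpGs stand out as peaks. A 3dpf embryo already has a beating heart, a layered retina, a regionalized brain and a liver bud, and its DNA comes from all of these together with muscle, skin, gut and blood.

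The 3dpf sample was untreated, of the Tübingen/AB background and of no recorded sex, and its DNA was pooled from whole embryos. The adult tissues were dissected from untreated females of the same background and likewise pooled, so stage, sex and tissue composition differ together. Every condition had 1 enriched library, although that of brain was sequenced in lanes 4 and 5. The eye, heart and liver libraries were run in lane 4 beside a methylation-poor brain library, whereas 3dpf was run in another lane with a separate control. Lane and control therefore cannot be told apart from stage. The sperm, one-cell and midblastula libraries, set beside the others below, were run in lane 5, which brain shared and eye, heart and liver did not. Where brain stands nearer to these samples than the other tissues do, tissue and lane cannot be told apart. Without replicates no test across samples was possible, and the Wilson 95% intervals given here cover counting error only, since the peaks of a list are not replicates. In pooled tissue, methylation in few cells and weak methylation in many cannot be told apart. The lists name no genes, and an annotation of their Zv9 build was not used here, so the tissue labels could not be checked against marker genes and positions are given without gene names.

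Of the 3dpf peaks, 64452 were held by at least 1 adult tissue, which is 63.3% (95% CI 63.0 to 63.6), and 37416, or 36.7%, were held by none. The distribution had a maximum at each end. All 4 tissues held 33553 of the 3dpf peaks, 32.9% (95% CI 32.6 to 33.2), while 18842 were held by 1 tissue, 5006 by 2 tissues and 7051 by 3 tissues. A 3dpf peak was therefore found far more often in all 4 adult tissues or in none of them than in an intermediate number, apart from the class held by 1 tissue.

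**Figure D1:**
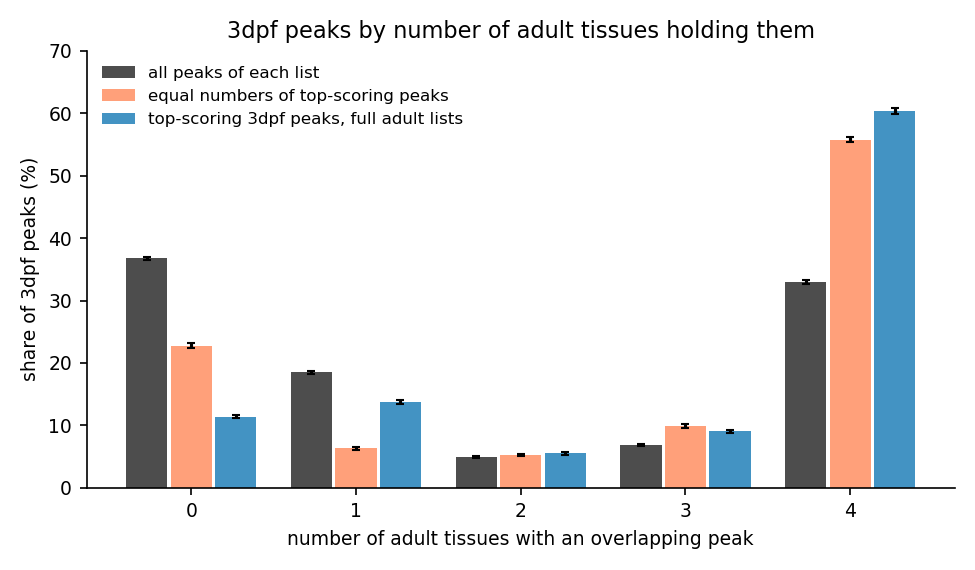
Share of 3dpf peaks (%, y axis) by the number of adult tissues with an overlapping peak (x axis), with all peaks, with equal numbers of top-scoring peaks in every list, and with top-scoring 3dpf peaks against full adult lists; error bars are Wilson 95% intervals. Held by none and held by all 4 are the largest classes with all peaks (36.7% and 32.9%), and held by all 4 is the largest (55.8% and 60.3%) in the other settings.

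At equal numbers, 10419 of the 45785 top-scoring 3dpf peaks had no overlapping peak among the top-scoring adult peaks, which is 22.8%, and all 4 tissues held 25541, or 55.8% (95% CI 55.3 to 56.2). The limit fell at a 3dpf score of 87.6, and peaks with this score lay on either side of it. Against the full adult lists, 5224 of these top-scoring 3dpf peaks were held by no tissue, or 11.4%, and 60.3% were held by all 4. The class held by 1 tissue depended on list length. It made up 18.5% of the 3dpf peaks with all peaks and 6.31% at equal numbers.

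The same shares in the other embryonic lists and in sperm were counted to show where 3dpf stood. At equal numbers, the share of peaks held by no adult tissue was 22.8% in 3dpf, 17.9% in mbt (midblastula transition) embryos, 19.9% in sperm, 44.2% in one-cell embryos and 24.7% in 3dpf embryos treated with methotrexate (MTX-3dpf). The share held by all 4 tissues was 55.8% in 3dpf, 58.6% in mbt, 56.9% in sperm, 39.2% in one-cell embryos and 54.6% in MTX-3dpf. The share of top-scoring peaks held by all 4 tissues was thus a little lower in 3dpf than in mbt and sperm. The counting error does not cover differences between libraries, so without replicates this order does not show a difference between samples. The 3dpf share lay between that of MTX-3dpf, 54.6%, and that of sperm, 56.9%. With all peaks, the share held by none was 36.7% in 3dpf, 47.9% in mbt and 31.3% in sperm, so the order of 3dpf and mbt depended on the setting.

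Brain held the most 3dpf peaks, 59656 or 58.6%, against 42.1% for liver, 41.8% for heart and 38.4% for eye. The brain list is also the longest of the adult lists. At equal numbers brain held the fewest, 64.4% (95% CI 64.0 to 64.9), and liver the most, 69.1% (95% CI 68.7 to 69.5), with 68.3% in heart and 67.8% in eye. Of the 18842 peaks held by 1 tissue, 17531 were held by brain, 582 by liver, 438 by heart and 291 by eye. At equal numbers the corresponding numbers were 1449 for brain, 623 for liver, 423 for heart and 395 for eye. The 3dpf peaks held by 3 tissues lacked eye in 2900 cases and brain in 2492, and lacked liver in 973 and heart in 686. At equal numbers the combination without brain was the most frequent of these, with 3081 peaks.

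The number of tissues that held a 3dpf peak rose with its score. The score is a value of the peak caller without a stated unit and was used here only within a list. In regions checked by bisulfite sequencing, the paper found this score unrelated to how much CpG methylation was present. Weak and strong peaks are therefore peaks of low and high score, and not of low and high methylation. The median score was 25.4 for 3dpf peaks in no adult tissue, 55.5 for those in 1, 88.5 for those in 2, 112 for those in 3 and 226 for those in all 4. In percentiles of the 3dpf list these medians stood at 26.5, 44.1, 55.3, 61.2 and 79.2. In the lowest decile of the list, 71.5% of the peaks were held by no adult tissue (95% CI 70.6 to 72.4) and 4.86% by all 4. In the ninth decile these shares were 5.65% and 78.5%, and in the highest 6.02% and 81.0%. The class held by 1 tissue was most frequent in the middle of the list, with 28.9% of the peaks in the sixth decile, where brain held 66.0% of the peaks and eye 32.0%. With the full lists, of which that of brain is the longest adult one, weak 3dpf peaks were therefore held mainly by brain where they were held at all. The deciles were not counted at equal numbers. In the lowest decile brain held 25.7%, heart 9.46%, liver 9.33% and eye 7.42%.

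**Figure D2:**
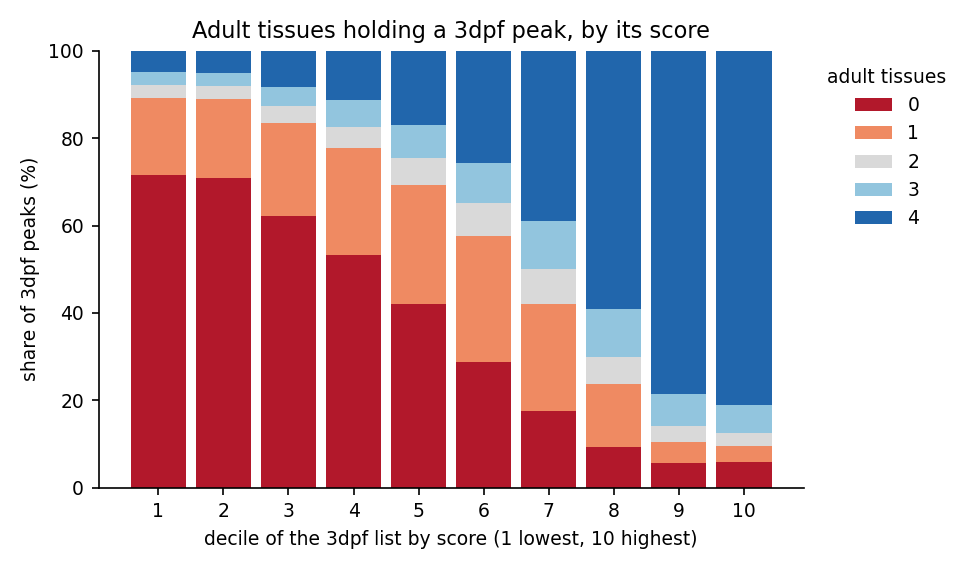
Share of 3dpf peaks (%, y axis) held by 0, 1, 2, 3 or 4 adult tissues (colours) in each decile of the 3dpf list by score (x axis, 1 lowest, 10 highest). The share held by none goes down from 71.5% in the lowest decile to 6.02% in the highest, and the share held by all 4 goes up from 4.86% to 81.0%.

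Peak centers of 3dpf and of an adult tissue that overlapped were close together. The median distance from a 3dpf center was 21 bp for brain, 22 bp for liver and 23 bp for both eye and heart. It was 11 bp between 3dpf and MTX-3dpf and between 12 and 17 bp among the adult tissues. Overlaps of less than 100 bp, the weakest that were counted, made up between 7.21% of the shared 3dpf peaks in brain and 8.18% in eye, against 1.09% in MTX-3dpf. Among shared peaks the ranks of the 3dpf score and of the adult score had a Spearman's rho of 0.65 in eye (39114 peaks), 0.66 in heart (42556), 0.66 in liver (42893) and 0.67 in brain (59656). For 3dpf and MTX-3dpf rho was 0.95 over 84949 peaks, and for eye and heart it was 0.96 over 43368. These are descriptions across sites, which share base composition and 1 library per list.

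A part of the unshared 3dpf peaks lay next to an adult peak. Of the 37416 held by no adult tissue, 9001 had the center of an adult peak within 1000 bp, or 24.1%. This share was 19.1% in the lowest decile of the 3dpf list by score and 86.1% in the highest, where 528 of 613 such peaks had an adult center that close. The strongest unshared 3dpf peaks thus mostly had an adult peak center within 1000 bp. Whether that adult peak overlapped another 3dpf peak was not counted, so a near center does not show a shifted peak. Over all deciles, 20.9% of the 3dpf peaks in no adult tissue had another 3dpf center within 1000 bp, against 10.8% of those in all 4 and 15.4% of all 3dpf peaks.

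The other lists, which the classes did not use, were then set beside them. Of all 3dpf peaks, 83.4% overlapped a peak in MTX-3dpf, a separate pool of embryos that had received 400 µM methotrexate, an antifolate, from the one-cell stage. This share was 68.9% for 3dpf peaks in no adult tissue, 84.5% for those in 1, 88.5% for those in 2, 90.5% for those in 3 and 96.7% for those in all 4. Taken over all scores, the unshared 3dpf peaks were therefore found again in a second 3dpf library less often than the shared ones. The paper lists both 3dpf libraries in the same lane. Of the unshared peaks of the lowest decile, 25.4% were in MTX-3dpf, of those of the sixth decile 98.2%, and of those of the highest decile 81.1%. At equal numbers, where the MTX-3dpf list was cut as well, 81.2% of the 3dpf peaks in no adult tissue were in MTX-3dpf, against 94.2% of those in all 4. With the top-scoring 3dpf peaks against the full adult and MTX-3dpf lists, these shares were 94.1% and 98.4%.

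Sperm held 73.3% of all 3dpf peaks, mbt embryos 75.8% and one-cell embryos 75.4%. For 3dpf peaks in all 4 adult tissues, these shares were 94.3% in sperm, 94.7% in mbt and 82.0% in one-cell embryos. For 3dpf peaks in no adult tissue they were 45.6% in sperm, 53.5% in mbt and 69.4% in one-cell embryos. One-cell embryos had the longest of the 9 lists, and at equal numbers the shares for 3dpf peaks in no adult tissue were 35.2% in sperm, 35.7% in mbt and 38.3% in one-cell embryos. At equal numbers, 40.5% of them were in none of these 3 lists, against 3.75% of the 3dpf peaks in all 4 adult tissues. A 3dpf peak that the adult tissues lacked was thus more often lacking in the earlier samples too. With all peaks, 33.2% of the 3dpf peaks in no adult tissue were in sperm, one-cell and mbt alike, and 7677 were in none of the 3. Of those 7677, 5097 were also in MTX-3dpf, and the other 2580 were found in no other list.

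**Figure D3:**
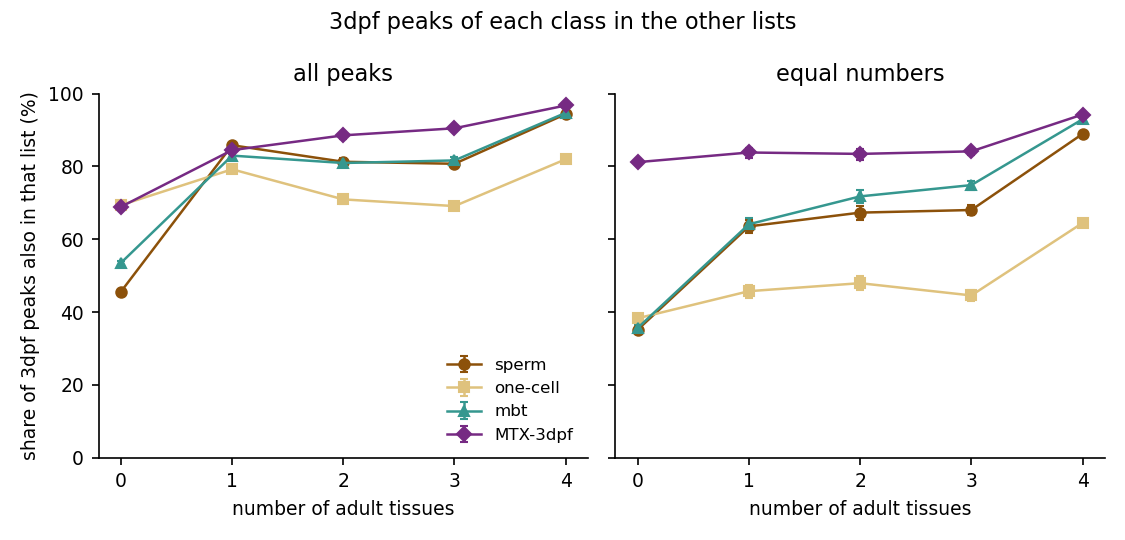
Share of 3dpf peaks (%, y axis) that overlap a peak in sperm, one-cell embryos, mbt embryos or MTX-3dpf, by the number of adult tissues holding them (x axis), with all peaks (left) and at equal numbers (right); error bars are Wilson 95% intervals. The lowest sperm and mbt shares are those of 3dpf peaks in no adult tissue (45.6% and 53.5% with all peaks) and the highest those of peaks in all 4 (94.3% and 94.7%).

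Among the 3dpf peaks held by brain alone, 88.6% were in sperm and 85.2% in mbt. These shares were nearer to those of the peaks in all 4 tissues than to those of the peaks in none, although the median score of the class stood at the percentile 43.4 of the 3dpf list. The peaks held by eye alone had a higher median percentile, 67.2, and were in sperm in 34.4% of cases and in mbt in 37.8%. For liver alone these shares were 50.2% and 57.4%, and for heart alone 54.6% and 55.5%. The eye, heart and liver classes are small, with between 291 and 582 peaks. At equal numbers, peaks held by brain alone were in sperm in 68.3% of cases and in mbt in 66.9%. The corresponding shares were 63.4% and 68.3% for heart alone, 61.3% and 65.0% for liver alone, and 49.6% and 48.1% for eye alone. In that setting heart and liver alone thus stood near brain alone, and eye alone stayed lowest.

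For the strongest members, the 3dpf peaks on chromosomes with no adult peak center within 1000 bp were ranked by score, which left 27372 peaks. The highest lay on chromosome 24 from 999701 to 999901, with a score of 604, at the percentile 99.9 of the 3dpf list. Its nearest adult center was 1969 bp away, in eye, and it was found in MTX-3dpf and in none of sperm, one-cell and mbt embryos. The next lay on chromosome 12 from 49901594 to 49901794 (score 567) and was found in one-cell embryos and MTX-3dpf. The third lay on chromosome 10 from 13368279 to 13368479 (score 565) and was found in sperm and MTX-3dpf. The nearest adult centers of these other peaks, in brain and in both eye and heart, were 1271 and 1307 bp away. The highest-scoring 3dpf peaks in all 4 adult tissues were on chromosome 1 from 59811599 to 59811799 (score 832), chromosome 13 from 50644684 to 50644884 (score 805) and chromosome 7 from 8482679 to 8482879 (score 798), and each of them was found in all 9 lists.

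For the converse question, which adult methylation was absent at 3dpf, the adult peaks were merged into 86259 regions, so that a position found in several tissues counted once. Of these, 21736 held no 3dpf peak, which is 25.2% (95% CI 24.9 to 25.5). The share fell with the number of tissues. It was 43.3% of the 32713 regions of 1 tissue, 28.5% of the 6548 regions of 2 tissues, 23.4% of the 8728 regions of 3 tissues and 9.52% of the 38270 regions of all 4. Adult regions common to all 4 tissues were therefore mostly found at 3dpf, and regions of 1 tissue were absent at 3dpf more than 4 times as often. At equal numbers 24303 of 59709 regions were absent, or 40.7%, and the share was 77.3% for regions of 1 tissue and 21.9% for regions of all 4.

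With all peaks, brain contributed most of the absent regions. Regions of brain alone made up 12920 of the 21736 absent regions, or 59.4% (95% CI 58.8 to 60.1). Brain was among the tissues of 86.0% of the absent regions, a lower share than its 91.6% of all adult regions. At equal numbers these shares were 65.4% and 76.7%. Regions of liver alone gave 521, of heart alone 435 and of eye alone 304. Brain alone also held 30338 of the 86259 adult regions, and the share of these that was absent at 3dpf, 42.6%, was lower than for the regions of eye alone (57.1%), heart alone (54.4%) and liver alone (50.0%). At equal numbers, brain alone gave 25.6% of the absent regions, and 81.7% of its regions were absent, against 76.0% for eye alone, 70.2% for heart alone and 63.5% for liver alone. Against the full 3dpf list, 62.7% of the regions of brain alone among the top-scoring adult peaks were absent, 43.0% of those of eye alone, 34.0% of heart alone and 30.9% of liver alone. Brain alone therefore had the lowest rate of absence with all peaks and the highest in both other settings. With all peaks, regions of all 4 tissues were the next largest part of the absent regions, with 3645, or 16.8%. At equal numbers they were the largest part, with 7351, or 30.2%, ahead of the 25.6% of brain alone. With top-scoring adult peaks against the full 3dpf list, brain alone was the larger again, with 38.0% against 22.4%.

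Counted on the peaks of each tissue, 19352 brain peaks had no overlapping 3dpf peak, or 24.5% (95% CI 24.2 to 24.8). The shares were 15.1% in heart (7554 peaks), 14.6% in eye (6671) and 14.5% in liver (7277), which differed from one another by less than 1 percentage point. At equal numbers they were 35.6% in brain, 32.2% in eye, 31.7% in heart and 30.9% in liver. Against the full 3dpf list, the top-scoring peaks were absent in 20.1% of cases in brain, 14.6% in eye, 13.7% in heart and 13.3% in liver. Brain had the highest share in each of these settings, and the gap to the other tissues was smaller at equal numbers. This rank of brain was not particular to 3dpf. At equal numbers the share of brain peaks absent was 32.2% for mbt, 33.6% for sperm, 36.7% for MTX-3dpf and 53.3% for one-cell embryos. For each of these lists, too, brain had the highest share of the adult tissues. With all peaks, 24.0% of the brain peaks were absent from mbt and 20.8% from sperm. As a reference, the share of eye peaks absent from another list at equal numbers was 32.2% for 3dpf, against 8.62% for heart and 21.3% for brain. For liver peaks it was 30.9% for 3dpf, against 8.81% for heart and 22.0% for brain. With all peaks, the share of liver peaks absent was 14.5% for 3dpf, against 14.8% for eye, 11.1% for brain and 9.54% for heart. Beside the other adult lists, 3dpf thus lacked the most liver peaks at equal numbers and not with all peaks. At equal numbers the share was 51.6% for one-cell embryos, 32.7% for MTX-3dpf, 29.2% for sperm and 26.9% for mbt, so this was not particular to 3dpf.

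**Figure D4:**
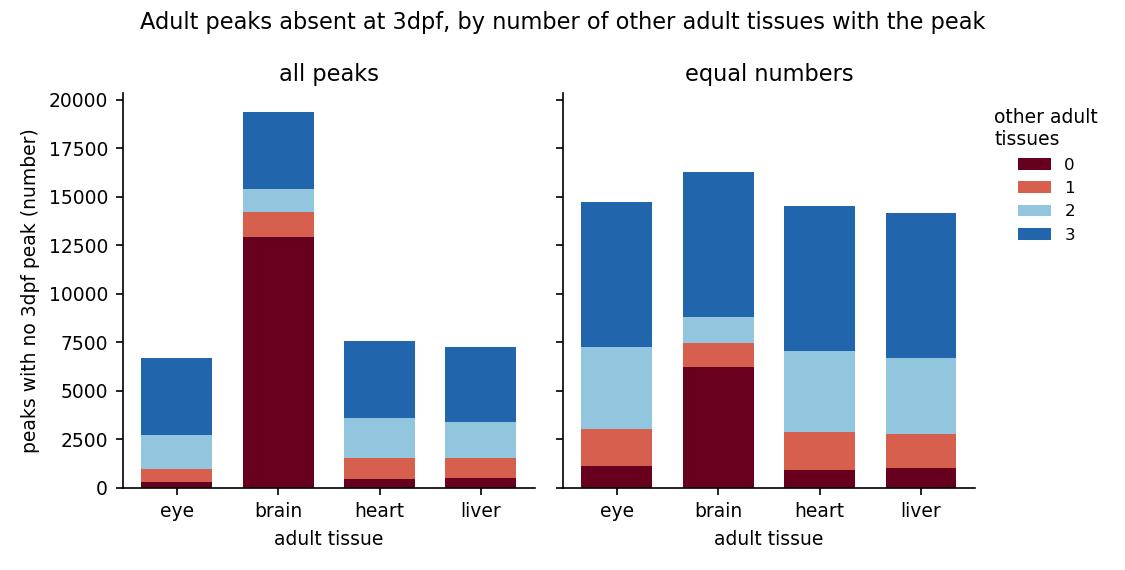
Number of peaks of each adult tissue with no overlapping 3dpf peak (y axis), split by how many other adult tissues hold the peak (colours), with all peaks (left) and at equal numbers (right). With all peaks brain has 19352 such peaks, of which 12920 are in no other adult tissue, and the other tissues have between 6671 and 7554; at equal numbers the bars lie between 14149 and 16285.

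The absent peaks of eye, heart and liver were mostly in all other adult tissues, but less often than all peaks of these tissues. Of the eye peaks absent at 3dpf, 3954 (59.3%) were in all other adult tissues and 304 were in no other. Of all 45785 eye peaks, 37994 were in all other adult tissues. Of the brain peaks absent at 3dpf, 3971 (20.5%) were in all other adult tissues and 12920 (66.8%) in none. Of all 79008 brain peaks, 37847 were in all other adult tissues and 30338 in none. At equal numbers the shares of the absent peaks were 45.9% and 38.2% in brain, against 50.7% and 7.73% in eye. The share of absent brain peaks in no other tissue was thus smaller than with all peaks. So was the class itself, since of the 45785 top-scoring brain peaks 33202 were in all other adult tissues and 7612 in none. Of those 7612, 81.7% were absent at 3dpf, against 42.6% of the 30338 with all peaks. With all peaks, absent peaks had a lower median score than peaks present at 3dpf in each tissue. The median percentile of the absent and of the present peaks was 37.7 and 51.9 in eye, 39.3 and 52.9 in brain, 35.6 and 52.2 in heart, and 36.5 and 52.0 in liver. Within classes of peaks held by fewer than all 4 tissues, the absent peaks were often the stronger ones in this setting. The medians were 26.5 and 20.5 for brain peaks in no other adult tissue, 45.4 and 35.8 for brain peaks in 1 other, 29.1 and 22.5 for liver peaks in 2 others, and 25.4 and 15.8 for eye peaks in 1 other. For eye peaks in no other adult tissue they were 16.6 and 38.3. At equal numbers those of brain peaks in no other adult tissue were 38.8 and 15.7, and those of brain peaks in 1 other 30.4 and 23.0. For liver peaks in 2 others they were 25.3 and 32.2, and for eye peaks in 1 other 11.2 and 14.3. For these classes of liver and eye the order was thus reversed at equal numbers.

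By decile of the adult score, absence at 3dpf was most frequent among the weakest peaks, fell towards the middle and upper deciles and rose again at the top. It was 26.1% in the lowest decile of eye, 8.82% in the seventh and 16.9% in the highest. In brain it was 44.0% in the lowest decile, 18.0% in the eighth and 25.1% in the highest. The rise at the top went with absent peaks that had a 3dpf center nearby. In the highest decile, 89.9% of the absent eye peaks, 90.1% of those of heart, 89.5% of those of liver and 64.2% of those of brain had a 3dpf center within 1000 bp, against 32.6%, 27.2%, 28.8% and 14.2% in the lowest decile. Of all peaks in the highest decile, those with no 3dpf center within 1000 bp were 9% in brain, against 1.70% in eye, 1.68% in heart and 1.71% in liver. The strongest adult peaks far from any 3dpf peak were therefore mainly brain peaks.

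Over all absent regions, 27.7% had a 3dpf center within 1000 bp and 58.4% within 5000 bp. For the absent regions of brain alone these shares were 18.1% and 51.1%, and for those of eye, heart and liver without brain 50.8% and 81.5%. The median distance to the nearest 3dpf center was 4709 bp for absent regions of brain alone, 2170 bp for those of all 4 tissues and 942.5 bp for those of eye, heart and liver.

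Absent regions were then looked up in the lists that had not been used to define them. MTX-3dpf held 8.69% of them, against 92.1% of the adult regions present at 3dpf, so that 19848 regions, 23.0% of all adult regions, were absent from both 3dpf lists. Sperm held 37.3% of the absent regions, against 90.4% of the present ones. For mbt these shares were 27.7% and 89.7%, and for one-cell embryos 30.1% and 80.9%. Absence at 3dpf thus went with absence from the earlier samples, and 50.7% of the absent regions (11028) were in none of sperm, one-cell and mbt. This last share was not counted for the regions present at 3dpf. The share differed between the classes. Of the 3645 absent regions of all 4 tissues, 62.5% were in sperm, 47.4% in mbt and 41.8% in one-cell embryos, and 758 were in no list but those of the adult tissues. Of the 12920 absent regions of brain alone, 29.7% were in sperm, 21.6% in mbt and 27.3% in one-cell embryos, and 7651 were in no other list.

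The other lists were set beside 3dpf for the adult regions they lacked. Of all adult regions, 25.2% were absent from 3dpf, 28.9% from MTX-3dpf, 25.9% from mbt, 23.0% from sperm and 31.9% from one-cell embryos. For regions of all 4 tissues these shares were 9.52% in 3dpf, 10.9% in MTX-3dpf, 9.33% in mbt and 8.05% in sperm, and one-cell embryos lacked 7652 of the 38270. The 3dpf list therefore did not hold more of the common adult regions than mbt or sperm. At equal numbers, 21.9% of them were absent from 3dpf, 23.4% from MTX-3dpf, 18.5% from mbt, 20.9% from sperm and 44.4% from one-cell embryos. One-cell embryos thus lacked more of the adult regions than 3dpf in both settings. Of the regions of brain alone, with all peaks, 42.6% were absent from 3dpf and 49.4% from MTX-3dpf. The shares were 41.5% for mbt, 40.8% for one-cell embryos and 36.2% for sperm, so mbt and one-cell embryos stood near 3dpf in this class. A class that 3dpf did hold more often was that of eye, heart and liver without brain. Of its 3346 regions, 31.6% were absent from 3dpf (95% CI 30.1 to 33.2) and 34.7% from MTX-3dpf, against 44.8% from mbt, 43.8% from sperm and 58.5% from one-cell embryos. At equal numbers this difference from mbt and sperm was not found, with 51.8% absent from 3dpf, 48.6% from mbt and 52.0% from sperm.

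Across the 25 chromosomes, the share of 3dpf peaks held by no adult tissue varied little, between 34.5% on chromosome 4 and 39.4% on chromosome 19. The share held by all 4 tissues lay between 30.9% on chromosome 3 and 35.0% on chromosome 15. The share of adult regions absent at 3dpf, in contrast, was 48.8% on chromosome 4 (95% CI 47.4 to 50.3) and at most 29.1% elsewhere, on chromosome 7, with a median of 22.8% over the chromosomes and the lowest value, 18.1%, on chromosome 25. On the unplaced scaffolds it was 37.0%. Brain alone gave between 51.9% of the absent regions, on chromosome 18, and 64.5%, on chromosome 3, and 60.8% on chromosome 4.

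**Figure D5:**
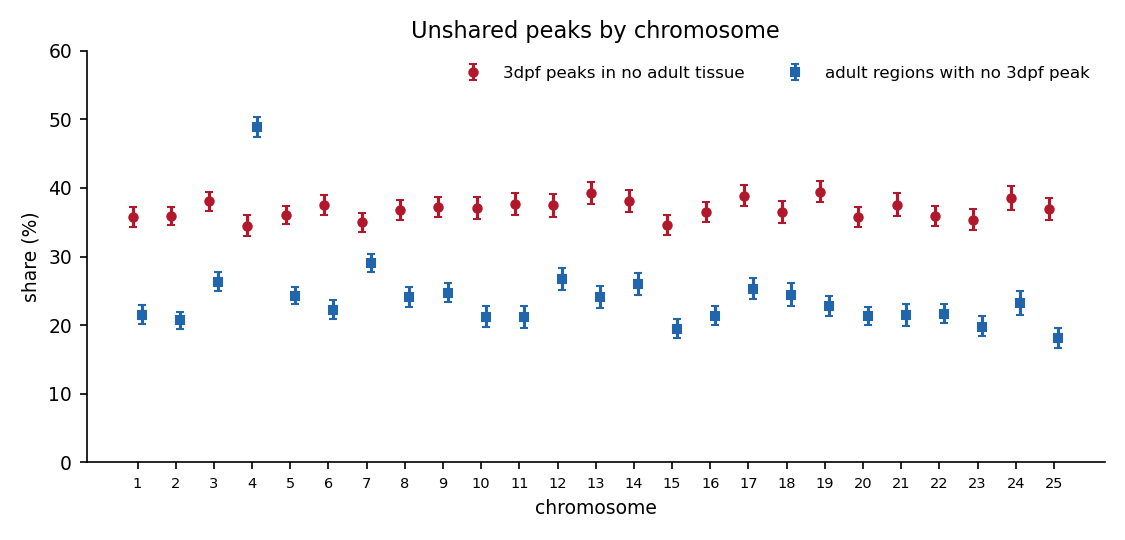
Share (%, y axis) of 3dpf peaks in no adult tissue (circles) and of adult regions with no 3dpf peak (squares) on each of the 25 chromosomes (x axis); error bars are Wilson 95% intervals. The circles lie between 34.5% and 39.4%, and the square of chromosome 4 stands at 48.8% while the others lie between 18.1% and 29.1%.

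The absence on chromosome 4 lay beyond 25 Mb, in the long arm, which is known in zebrafish as repeat-rich and heterochromatic. There 2122 of 3967 adult regions were absent at 3dpf, or 53.5% (95% CI 51.9 to 55.0), against 141 of 666, or 21.2%, below 25 Mb. All 4 tissues took part, since 52.7% of the brain regions there were absent, 35.6% of the heart regions, 35.6% of the liver regions and 34.1% of the eye regions. The arm held 2.64% of the 3dpf peaks, 4.60% of the adult regions and 9.76% of the absent ones. The other embryonic lists lacked these regions as well. Of the 3967 regions, 58.0% were absent from MTX-3dpf, 54.6% from mbt, 53.9% from one-cell embryos and 42.6% from sperm. Over all other adult regions these shares were 27.5%, 24.5%, 30.8% and 22.1%, and that of 3dpf was 23.8%. At equal numbers the arm had 2546 adult regions, of which 69.5% were absent from 3dpf and 70.5% from MTX-3dpf. The shares were 68.1% for mbt, 81.6% for one-cell embryos and 69.1% for sperm, so sperm stood near 3dpf in that setting. The 3dpf peaks that did lie on the arm were held by all 4 tissues in 33.8% of cases and by none in 31.4%. For the 925 3dpf peaks below 25 Mb these shares were 28.1% and 43.4%. The 34.5% held by none over the whole of chromosome 4 thus joins unlike parts.

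In windows of 1 Mb, the median window had 62 3dpf peaks, 24 in no adult tissue, and 12 adult regions absent at 3dpf. The 10 windows with the most absent adult regions were all on chromosome 4, and 16 of the first 20. The highest ran from 44 to 45 Mb, with 95 of 126 adult regions absent, 62 of them of brain alone. It was followed by the window from 31 to 32 Mb, with 90 of 112, and that from 49 to 50 Mb, with 84 of 111. The windows with the most 3dpf peaks in no adult tissue were spread over several chromosomes. They were chromosome 4 from 59 to 60 Mb, with 78 of 231 3dpf peaks, chromosome 17 from 0 to 1 Mb, with 73 of 164, and chromosome 3 from 5 to 6 Mb, with 71 of 136. The first of these windows was also rich in 3dpf peaks of all 4 tissues, with 87, whereas the window of chromosome 3 had 23.

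The highest-scoring adult peak with no 3dpf center within 1000 bp was at the same place in eye, heart and liver, on chromosome 20 from 50376601 to 50376801 in eye and heart and from 50376619 to 50376819 in liver. Its score was 1176 in eye, 1204 in heart and 1223 in liver, near the top of each list. Brain had no peak there and its nearest center was 1362 bp away, that of 3dpf was 1406 bp away, and sperm, one-cell and mbt embryos each had a peak. In brain the highest such peak lay on chromosome 20 from 22298762 to 22298962, with a score of 996. It was in none of the other lists, and the nearest 3dpf center was 1802 bp away.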

How the data were processed

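The authors used BWA 0.5.8c for alignment to the Zv9 genome, kept properly paired reads with a mapping quality above 5, called peaks with MACS2 2.0.10.20120703 and widened each peak center by 100 bp to either side. The deposited lists hold these intervals with a score that has no stated unit. Scores were used to rank peaks within a list. Read depth is not part of the lists and was not used here.

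Overlaps, merged adult regions, center distances and Wilson intervals were obtained with SciPy 1.17.1, pandas 2.3.3 and NumPy 2.4.6 under Python 3.11.15, and figures with matplotlib 3.10.9. All 5 checks on simulated lists gave the known answers, and all 4 overlap counts of 3dpf equalled those of bedtools. Members, comparisons and alternatives were chosen with earlier results of these data known. Named peaks are the highest-scoring on chromosomes per class (3 for 3dpf classes, 1 per tissue), beside the 3 windows with the most unshared peaks and the chromosomes with the highest and lowest shares. Alternatives were equal numbers, stricter scores and overlaps, merged peaks, chromosomes alone and lists left out or replaced. Those without chromosome 4 and with both 3dpf lists were chosen after seeing the data. Genes and sequences were not analysed, since no Zv9 genome was used here. The methylation-poor brain samples entered no comparison.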

Additional observations from a re-analysis of the deposited data

Results flagged for a closer look

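Among the 4 adult tissues, 10 quantities were searched for a tissue far from the others by Dixon's ratio of gap to range, and 4 stood out, where chance gives about 1 in 20, or 0.5. Each was a value of brain. The share of peaks absent at 3dpf was 24.5% in brain, against between 14.5% and 15.1% in the other tissues. The number of 3dpf peaks held by that tissue alone was 17531 in brain, against between 291 and 582. Of the peaks absent at 3dpf, 26.1% in brain had a 3dpf center within 1000 bp, against between 44.6% and 48.1%, and at equal numbers 16.0%, against between 16.7% and 16.8%. The last difference is smaller than 1 percentage point. The quantities are not independent of one another, so 4 against 0.5 does not measure an excess over chance. The tissues are different conditions with 1 library each. Brain had the longest adult list and was sequenced in 2 lanes, and the part of this in the values was not tested beyond the equal numbers.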

How the results depend on the processing

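The shares of 3dpf peaks in at least 1 and in all 4 adult tissues, of adult regions absent at 3dpf, and of these held by brain alone are given in this order, against 63.3%, 32.9%, 25.2% and 59.4% as reported. They were 77.2%, 55.8%, 40.7% and 25.6% at equal numbers, and 74.7%, 47.4%, 47.0% and 32.1% with the 20000 highest-scoring peaks. With scores at or above the list median they were 59.3%, 31.8%, 31.1% and 60.8%. An overlap of 100 bp gave 60.1%, 29.0%, 29.1% and 56.5%, and centers within 1000 bp 72.1%, 41.4%, 18.2% and 67.5%. With the top-scoring list on the counted side alone they were 88.6%, 60.3%, 21.0% and 38.0%. With MTX-3dpf in place of 3dpf the first 3 were 66.7%, 35.9% and 28.9%, and with both 3dpf lists 69.7%, 38.2%, 23.0% and 61.9%. Leaving out brain gave 46.1%, 35.4% and 16.1% for the first 3. Leaving out eye moved the share in all tissues to 35.8% and that of brain alone to 60.7%. Leaving out heart gave 62.8%, 33.6% and 62.7% for all but the absent regions, and leaving out liver 62.7%, 33.9% and 63.0%. The share of absent regions moved to 24.5% on the 25 chromosomes alone and to 23.9% without chromosome 4. The remaining values lay within the 95% interval of the value as reported. Brain had the highest share of absent peaks among the tissues in all 14 alternatives that kept brain. Leaving out another tissue cannot change a tissue's own share, nor can merging, since no list held overlapping peaks. Only the 10 alternatives in which the brain share moved therefore bear on this. The cause of these changes was not tested. No paired analysis was possible because each condition has 1 list. Limits set by read depth were not analysed here, since the lists carry no read counts. The paper reports read counts per lane, which were not used. The brain list, the longest of the adult lists, rests on reads of 2 lanes and those of eye, heart and liver on 1 lane each.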

Other observations

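Adult regions of eye, heart and liver without brain differed from those of brain, heart and liver in the earlier samples. Of the adult regions of eye, heart and liver present at 3dpf, sperm held 62.8%, mbt 65.7% and one-cell embryos 50.0%. For regions of brain, heart and liver present at 3dpf, these shares were 94.5%, 94.6% and 86.9%. MTX-3dpf held 88.4% of the regions of eye, heart and liver and 92.8% of those of brain, heart and liver. Among 3dpf peaks at equal numbers, those in eye, heart and liver without brain were in sperm in 64.7% of cases and those in brain, heart and liver in 79.1%. For regions of heart and liver only, which also lack brain, the shares depended on the setting. Of those present at 3dpf, sperm held 59.1% and mbt 65.9% with all peaks, and 79.4% and 82.7% at equal numbers. The shares at equal numbers were 80.6% and 85.9% for brain, heart and liver, and 65.0% and 73.3% for eye, heart and liver. Brain shared a sequencing lane with sperm, one-cell and mbt, and eye, heart and liver did not. The other lists were set beside these classes as a description, and no cause was tested.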
